A study of Homo sapiens with 48 samples.

Results

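CCL2, CCL7, CCL8, CCL11, CCL5, CCL20, CXCL12 and CX3CL1 are chemokines, small secreted proteins that draw white blood cells along a gradient. These 8 genes were taken by name from the 29744 genes of a bulk RNA-seq count table. The libraries came from an immortalized human fibroblast line, labelled as skin, that carries a fluorescent reporter at IL11 and was grown as sorted single-cell clones. In the CRISPRko arm the cells express Cas9 and carry a non-targeting guide (H47_Ctrl) or a guide to GLIS3 (H47_KO). In the CRISPRa arm they express dCas9-VP64, a catalytically dead Cas9 fused to a transcriptional activator, with a guide to GLIS3 (described as VP64_A) or a non-targeting guide (described as VP64_Ctrl). GLIS3 is a zinc-finger transcription factor. Guides were delivered by lentivirus and the cells selected in bulk, so each population may mix edited and unedited cells. All cells received TGFβ and IL-1β together, each at 10 ng/ml, for 0, 6, 12 or 24 h, and 3 libraries were made for each of the 16 combinations, 48 in all. The study describes its cell culture experiments in general as made of independent biological replicates, and the labels of these libraries do not say whether the 3 of a group were separate cultures. The p-values measure the spread between these libraries and not between separately transduced populations. No repeat of a transduction is described. In either arm an effect of the GLIS3 guide therefore cannot be told apart from other differences between the populations.

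The labels of the CRISPRa arm contradict each other. Libraries described as VP64_A carry titles of the control, and libraries described as VP64_Ctrl carry titles of GLIS3 activation. Groups are named here by their descriptions, and if the titles are right every VP64_A against VP64_Ctrl difference below has the opposite direction. GLIS3 itself was higher in all 12 libraries described as VP64_A, from 16.6 to 36.7 CPM (counts scaled to the library total), than in the 12 described as VP64_Ctrl, from 1.91 to 6.31 CPM. Among the Cas9 cells its range was 1.45 to 6.47 CPM in H47_Ctrl and 0.14 to 1.63 CPM in H47_KO. The log2 differences were -2.55 (SE 0.56, adjusted p = 0.0355) before stimulation, -1.80 (adjusted p = 0.0925) after 6 h, -1.21 (adjusted p = 0.507) after 12 h and -1.17 (adjusted p = 0.383) after 24 h. The target was thus called lower in the knockout at 0 h only, on 1 to 45 counts per library in this arm. In this arm GLIS3 met the minimum count for testing almost only in H47_Ctrl libraries. A lower value in H47_KO was therefore built in, and the call is not evidence. GLIS3 protein was not measured in these libraries.

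Chemokines are named for the spacing of their first cysteines. CC chemokines bind CCR receptors. CCL2, CCL7 and CCL8 draw monocytes through CCR2, CCL11 draws eosinophils through CCR3, CCL5 draws T cells and monocytes, and CCL20 draws dendritic cells and type 17 T cells through CCR6. CXCL12 is the constitutive chemokine of stromal cells, which retains CXCR4-bearing cells in bone marrow and other tissues, and CX3CL1 is a membrane-tethered chemokine read by CX3CR1. In fibroblasts, IL-1β acts through NF-kB and AP-1, factors that bind the promoters of many inflammatory chemokines, while TGFβ acts mainly through SMAD factors.

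RefSeq promoter windows were at hand for CCL7, CCL8, CCL20 and CXCL12 (4 of the 8, build GRCh38.p14), and they are shown because these members include the scarcest, the one that fell and a pair at or near 0 counts before stimulation. Each line gives the 250 bases before the start that RefSeq annotates, 5′ to 3′ on the gene's strand, with matches to 5 motifs in capitals. That start is the same as the GENCODE gene start for CCL7 and CCL8 and lies inside the GENCODE gene for CCL20 (8.1 kb in) and CXCL12 (1.4 kb in), where the gene positions given further on are GENCODE's.
CCL7, chr17:34269971-34270220, plus strand: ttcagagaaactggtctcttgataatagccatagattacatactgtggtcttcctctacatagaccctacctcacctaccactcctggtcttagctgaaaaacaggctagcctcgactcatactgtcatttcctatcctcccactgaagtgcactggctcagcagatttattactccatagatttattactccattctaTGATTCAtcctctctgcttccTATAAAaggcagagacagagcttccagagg
CCL8, chr17:34319185-34319434, plus strand: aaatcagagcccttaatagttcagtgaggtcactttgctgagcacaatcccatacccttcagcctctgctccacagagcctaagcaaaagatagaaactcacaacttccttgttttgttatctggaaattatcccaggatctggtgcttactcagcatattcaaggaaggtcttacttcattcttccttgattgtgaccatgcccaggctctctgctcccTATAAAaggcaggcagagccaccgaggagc
CCL20, chr2:227813592-227813841, plus strand: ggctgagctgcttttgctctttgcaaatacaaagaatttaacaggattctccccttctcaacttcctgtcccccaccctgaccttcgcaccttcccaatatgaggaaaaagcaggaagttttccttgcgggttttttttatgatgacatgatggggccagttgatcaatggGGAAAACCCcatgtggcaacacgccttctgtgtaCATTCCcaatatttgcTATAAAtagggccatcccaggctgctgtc
CXCL12, chr10:44385098-44385347, minus strand: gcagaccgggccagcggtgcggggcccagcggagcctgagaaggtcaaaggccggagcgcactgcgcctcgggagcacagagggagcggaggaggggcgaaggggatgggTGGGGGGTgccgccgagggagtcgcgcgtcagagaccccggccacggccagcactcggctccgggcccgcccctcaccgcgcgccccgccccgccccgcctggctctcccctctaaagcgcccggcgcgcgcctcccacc
The motifs searched on both strands were the NF-kB core GGNNTTTCC, AP-1 TGANTCA, TEAD GGAATG, the GLIS core TGGGGGGT and the TATA box TATAAA. CCL7 held an AP-1 match, TGATTCA, 51 to 45 bases before the start and a TATA box at 30 to 25 bases. CCL8, a gene of the same cluster, held the TATA box at the same 30 to 25 bases and no other match. CCL20 held an NF-kB core on the minus strand at 79 to 71 bases, a TEAD match on the minus strand at 45 to 40 bases and a TATA box at 29 to 24 bases. CXCL12 held a single GLIS core match at 140 to 133 bases and no TATA box. No 2 of these matches overlap, apart from the AP-1 match, which reads on both strands. Among all 35116 promoter windows of the same source, 5.48% held the NF-kB core, 6.57% AP-1, 11.9% TEAD, 1.33% the GLIS core and 10.7% TATAAA. A match is a run of letters and not a measured binding site.

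The 8 genes spanned more than 4 orders of magnitude. Per transcript length, the mean over all 48 libraries was 1599 TPM (transcript abundance scaled for length and library size) for CCL2, 85.4 TPM for CXCL12, 9.79 TPM for CCL5, 7.19 TPM for CCL20, 3.63 TPM for CCL7, 0.629 TPM for CCL11, 0.0287 TPM for CX3CL1 and 0.0206 TPM for CCL8. The order was the same for all 8 by CPM. It depended on the time, since per length CXCL12 was the most abundant member in every H47_Ctrl, H47_KO and VP64_Ctrl library at 0 h, and CCL2 in every VP64_A library at 0 h and in every library at 6, 12 and 24 h. Library totals ran from 2321990 to 10661004 counts, and CPM was taken over those totals scaled by TMM factors, so a level of 1 CPM rests on about 2 to 13 counts. By these factors 3 libraries stood apart, the third VP64_Ctrl library at 0 h (1.84) and the third H47_KO libraries at 24 h (1.51) and 0 h (1.5), against 0.68 to 1.34 in the other 45. Their 20 most abundant genes held 16.4%, 22.4% and 22.5% of the counts, against 23.7% to 34.1% in the others. Fits on library totals without the factors, and fits without these 3 libraries, were added after the data were seen and are given where they change the call of a member or of another gene named with its value. Without the factors the median log2 change of all tested genes from 0 to 6 h moved from -0.05 to -0.79 in VP64_Ctrl and from -0.10 to -0.61 in H47_KO, and the median difference between VP64_A and VP64_Ctrl at 0 h from -0.02 to -0.40. Genes were tested where enough libraries held about 10 counts, which left 10962 genes for the Cas9 cells, 10980 for the dCas9-VP64 cells and, in either arm, 5 of the 8 members (CCL2, CCL7, CCL5, CCL20 and CXCL12). CCL5, CCL7 and CCL20 passed that filter only through the stimulated libraries, so that their rise from 0 h had to appear and its call is not evidence. The libraries that carried CCL20 past it, and all but 1 of those that carried CCL7, were at 6 or 12 h, so that a fall of these genes by 24 h had to appear as well. Adjusted p-values come from edgeR's quasi-likelihood test over all tested genes, and a gene is called at an adjusted p under 0.05.

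The monocyte attractant CCL2 rose in all 4 kinds of cells and peaked at 6 h. In H47_Ctrl its 3 libraries held 4.86, 7.89 and 5.94 CPM at 0 h, 879, 2432 and 1727 at 6 h, 248, 231 and 257 at 12 h and 274, 252 and 208 at 24 h. In H47_KO they held 11.7, 11.5 and 10.3 CPM, 1699, 2250.3 and 1516, 288, 244 and 341 and 209, 107 and 107 at the same times. No library at 0 h came near any stimulated library of its kind, and no 12 or 24 h library reached the 6 h range. In VP64_Ctrl the values were 17, 11.8 and 9.73 CPM at 0 h, 2027, 2506 and 3069 at 6 h, 381, 262 and 424 at 12 h and 957, 897 and 533 at 24 h. In VP64_A they were 4.64, 4.65 and 3.29 CPM, 1208, 1684 and 1381, 242, 118 and 156 and 528, 416 and 393. In the CRISPRa arm, unlike in the CRISPRko arm, each 24 h library lay above each 12 h library of its kind, although that difference was not itself tested. The log2 rise from 0 to 6 h was 8.07 (SE 0.38, adjusted p = 1.04e-17) in H47_Ctrl, 7.35 (SE 0.36, adjusted p = 2.73e-17) in H47_KO, 7.61 (SE 0.34, adjusted p = 4.16e-18) in VP64_Ctrl and 8.38 (SE 0.36, adjusted p = 1.77e-18) in VP64_A. From 6 to 24 h CCL2 fell by 2.78 on the log2 scale in H47_Ctrl, 3.69 in H47_KO, 1.67 in VP64_Ctrl and 1.68 in VP64_A, each called. In bulk RNA a rise in RNA per cell and a rise in the number of cells that express a gene cannot be told apart, here and in all results that follow.

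At 6 h against 0 h, 5 of 5 tested members were called in H47_Ctrl, where 15.9% of all tested genes were, 5 in H47_KO (23.9% of all genes), 4 in VP64_Ctrl (28.8%) and 4 in VP64_A (17.4%). At 12 h against 0 h all 5 were called in each kind, with 19.6%, 27.4%, 26.8% and 19.7% of all genes in the same order. At 24 h the counts were 3 in H47_Ctrl (10.3%), 5 in H47_KO (15.8%), 3 in VP64_Ctrl (16%) and 4 in VP64_A (13.6%). These counts carry the 3 genes that the filter kept for their rise, so CCL2 and CXCL12 are the members for which a change was open. Of them CCL2 was called in all 12 of these comparisons, always higher, and CXCL12 in 9, always lower.

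**Figure D1:**
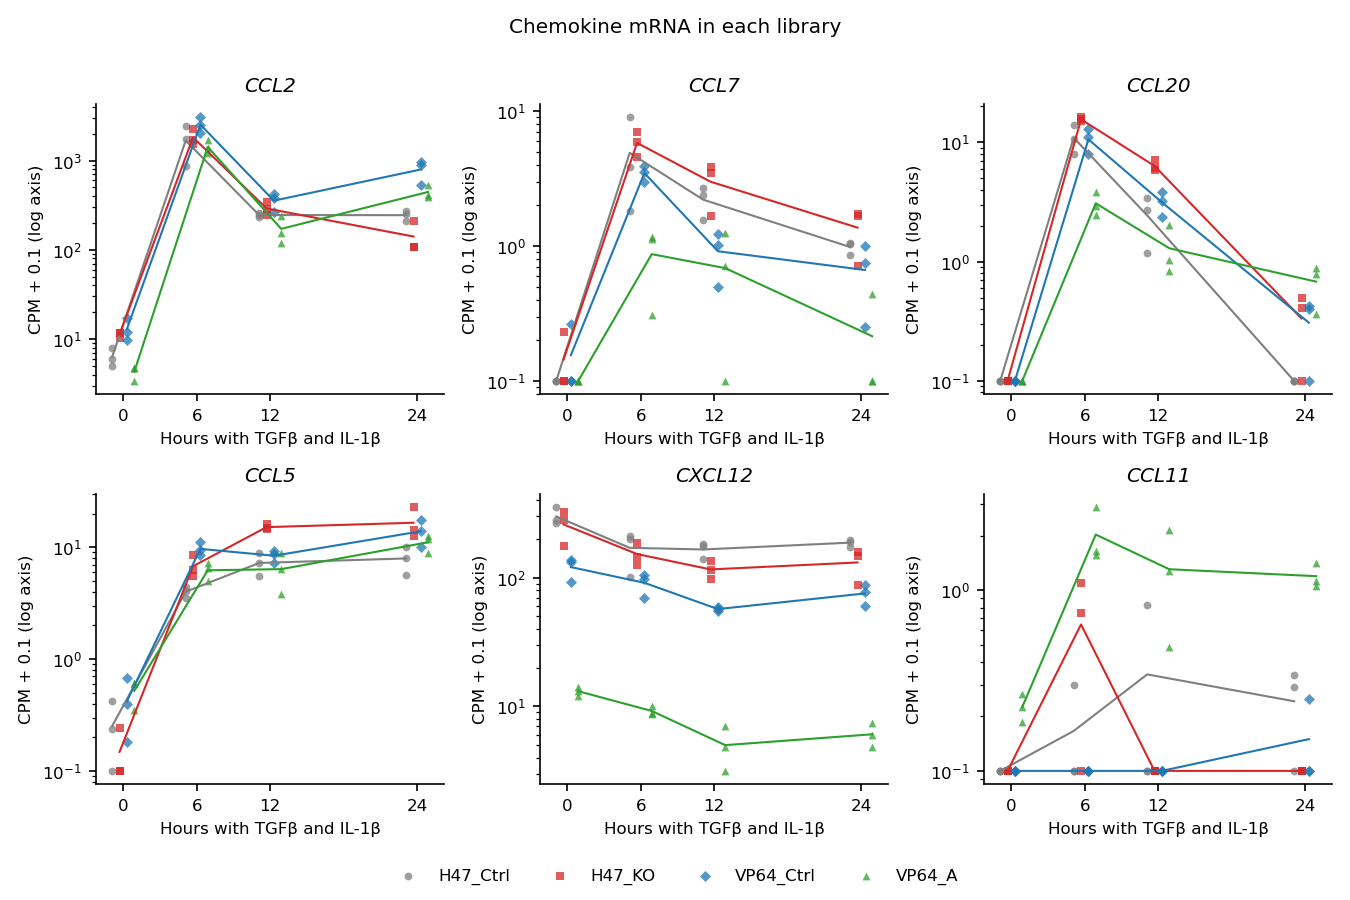
CPM + 0.1 (log axis) against hours of TGFβ and IL-1β for CCL2, CCL7, CCL20, CCL5, CXCL12 and CCL11, where points are libraries and lines join the means of 3 libraries of each kind of cells. In all 4 kinds of cells the means of CCL2, CCL7 and CCL20 are highest at 6 h and that of CCL5 at 24 h, and CXCL12 in VP64_A (3.05 to 14.1 CPM) lies below all other libraries at every time.

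CCL20, the CCR6 ligand, was absent before stimulation and returned close to that state within a day. It had 0 counts in all 12 libraries at 0 h. At 6 h it stood at 10.6, 13.9 and 7.85 CPM in H47_Ctrl, 15.4, 14.9 and 16.1 in H47_KO, 10.9, 7.82 and 12.7 in VP64_Ctrl and 3.75, 2.35 and 2.85 in VP64_A. Every VP64_A library was below every library of the other 3 kinds at that time. Against a floor of 3 counts over the 0 h libraries, the rise was at least 63.3-fold in H47_Ctrl, 105-fold in H47_KO and in VP64_Ctrl, and 25.6-fold in VP64_A. Without 1 library at a time these bounds fell as low as 36.2-fold (without the first 0 h library), 65.3-fold (the third), 63.6-fold (the first) and 14-fold (the first), since an empty library left out takes its depth with it. At 12 h it had come down to 3.31, 2.62 and 1.09 CPM in H47_Ctrl, 5.97, 7.0 and 5.74 in H47_KO, 3.75, 3.1 and 2.27 in VP64_Ctrl and 1.92, 0.726 and 0.938 in VP64_A. At 24 h it had 0 counts in the 3 H47_Ctrl libraries, at least 42.4-fold below their 6 h level (at least 23.2-fold without the first of them), and at most 0.79 CPM in any other library.

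CCL7, a second CCR2 ligand, had its highest mean at 6 h in all 4 kinds of cells, on far fewer counts than CCL2. It had 0 counts in 10 of the 12 unstimulated libraries. At 6 h it measured 8.91, 3.78 and 1.72 CPM in H47_Ctrl, 6.86, 4.46 and 5.81 in H47_KO, 3.44, 3.78 and 2.9 in VP64_Ctrl and 0.208, 1.07 and 1.03 in VP64_A. All 3 VP64_A libraries lay below all libraries of the other kinds. Against the floor of 3 counts the rise from 0 h was at least 31.6-fold in H47_Ctrl and at least 6.41-fold in VP64_A. The lower ends of the 95% counting intervals were 25.2 and 4.31. The ratio of counts was 118 (95% counting interval 20.2 to 4763) in H47_KO and 53.5 (14 to 456) in VP64_Ctrl. The first 6 h library of H47_Ctrl held 62 of the 88 counts, and without it the bound was 16.5-fold, while without the first or the second 0 h library it was 18.1-fold or 20.3-fold. In VP64_A the bound was 3.50-fold without the first 0 h library. The ratios rested on 1 count at 0 h in the third H47_KO library and 2 in the second VP64_Ctrl library, without which the rise was at least 24.6-fold and at least 21.7-fold, and they were 77.6 without the second H47_KO and 32.6 without the first VP64_Ctrl library at 0 h. At 12 h it was 2.57, 2.29 and 1.45 CPM in H47_Ctrl, 3.39, 3.73 and 1.57 in H47_KO, 0.395, 0.912 and 1.14 in VP64_Ctrl and 1.15, 0.605 and 0 in VP64_A. At 24 h it was 0.761, 0.935 and 0.951 CPM in H47_Ctrl, 1.56, 0.607 and 1.63 in H47_KO, 0.15, 0.648 and 0.894 in VP64_Ctrl and 0, 0.343 and 0 in VP64_A. The 24 h libraries lay below every 6 h library of their kind except in VP64_A, where they overlapped. In the CRISPRa arm, where each 24 h library held more CCL2 than each 12 h library of its kind, the mean of CCL7 was lower at 24 h than at 12 h with overlapping libraries. Neither step was tested. The first 6 h library of H47_Ctrl held the highest CCL7 value of all 48 and the lowest CCL2 value in CPM at 6 h.

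CCL5, the T cell and monocyte attractant also known as RANTES, had its highest mean at 24 h in all 4 kinds of cells. In H47_Ctrl it went from 0.135, 0.322 and 0 CPM at 0 h to 4.31, 3.98 and 3.44 at 6 h, 8.83, 7.2 and 5.44 at 12 h and 7.99, 5.61 and 9.99 at 24 h. In H47_KO it went from 0, 0.144 and 0 CPM to 5.49, 8.42 and 6.13, 14.7, 16.2 and 14.4 and 22.8, 12.4 and 14.3. The H47_KO libraries lay above the H47_Ctrl libraries at each of the 3 stimulated times without overlap in CPM, whereas in TPM, which carries no TMM factor, the first H47_Ctrl library at 6 h (8.79 TPM) lay above all 3 H47_KO libraries (6.81, 8.34 and 7.7 TPM). In VP64_Ctrl it went from 0.0827, 0.58 and 0.299 CPM to 8.45, 9.34 and 11, 9.27, 8.57 and 7.1 and 17.7, 10 and 13.8. In VP64_A it went from 0.515, 0.252 and 0.494 CPM to 7.09, 6.4 and 4.92, 8.83, 6.29 and 3.75 and 12.5, 11.7 and 8.85. The CRISPRa groups overlapped at 12 and 24 h, and at 6 h the VP64_A libraries were the lower ones. Between 6 and 24 h, a contrast in which the filter fixed no direction, CCL5 rose in H47_Ctrl (1.03, adjusted p = 0.0281) and H47_KO (1.34, adjusted p = 0.00165), and its difference was 0.58 (adjusted p = 0.189) in VP64_Ctrl and 0.82 (adjusted p = 0.0872) in VP64_A. The H47_Ctrl call was lost without any 1 of the 6 h libraries or the first or the third 24 h library (adjusted p from 0.0596 to 0.162), and without the TMM factors (0.19). CCL5 (chr17:35871491-35880793, minus strand) overlaps an unnamed long non-coding RNA gene on the opposite strand, and with a library kit that does not mark strand the reads of the pair cannot be told apart. From 6 to 24 h the filter left the direction open for CCL2, CCL5 and CXCL12. Of these 3, CCL2 (lower) and CCL5 (higher) were called in H47_Ctrl, where 14.6% of all genes were, and in H47_KO (24.2%), and CCL2 (lower) in VP64_Ctrl (18.4%) and VP64_A (12.5%).

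CXCL12 (chr10:44370165-44386493, minus strand), the stromal CXCR4 ligand, was high before stimulation and fell. In H47_Ctrl it held 264, 279 and 353 CPM at 0 h, 102, 199.8 and 209 at 6 h, 139, 175 and 182 at 12 h and 174, 197 and 189.7 at 24 h. In H47_KO the values were 322, 279 and 175 CPM, 125, 187 and 145, 98.1, 135 and 114 and 159, 146 and 88.3. In H47_Ctrl no stimulated library reached the lowest unstimulated one, whereas in H47_KO the third 0 h library overlapped the 6 h values in CPM. In TPM H47_KO held 208, 192 and 183 at 0 h and 84.1, 99.9 and 101 at 6 h, with no overlap. In VP64_Ctrl the values were 132, 138 and 92.1 CPM at 0 h, 69.7, 97.9 and 105 at 6 h, 58.8, 54.9 and 56.8 at 12 h and 77, 88.1 and 60.6 at 24 h. The 12 and 24 h libraries all lay below those at 0 h, and 2 of the 6 h libraries lay above the third 0 h library in CPM. In TPM VP64_Ctrl held 113, 107 and 116 at 0 h and 52.2, 60.02 and 58.8 at 6 h, again with no overlap. In VP64_A they were 13.1, 14.1 and 11.9 CPM, 10, 8.75 and 8.54, 6.91, 4.72 and 3.05 and 7.31, 5.83 and 4.74. Here every stimulated library was below every unstimulated one. The log2 change from 0 to 12 h was -0.85 (SE 0.24, adjusted p = 0.00893) in H47_Ctrl, -1.16 (SE 0.24, adjusted p = 0.000352) in H47_KO, -1.09 (SE 0.18, adjusted p = 1.86e-05) in VP64_Ctrl and -1.48 (SE 0.25, adjusted p = 3.41e-05) in VP64_A. At 6 h it was -0.81 (adjusted p = 0.0146) in H47_Ctrl and -0.77 (adjusted p = 0.0178) in H47_KO, against -0.42 (adjusted p = 0.0691) in VP64_Ctrl and -0.51 (adjusted p = 0.115) in VP64_A. The 6 h call in H47_Ctrl was lost without the third 0 h library (adjusted p = 0.0887) or the first 6 h library (0.149), and the 12 h call without the third 0 h (0.0579) or the first 12 h library (0.0629). In H47_KO the 6 h call was lost without the first or second 0 h library or the first or the third 6 h library (adjusted p from 0.0615 to 0.123), and in VP64_Ctrl the 6 h fall was called without the third 0 h library (0.014). At 24 h the change was -0.68 (adjusted p = 0.0652) in H47_Ctrl, -0.99 (adjusted p = 0.00306) in H47_KO, -0.69 (adjusted p = 0.00522) in VP64_Ctrl and -1.16 (adjusted p = 0.000822) in VP64_A. Without the TMM factors the fall was called in all 12 of these comparisons, among them -1.15 (adjusted p = 3.6e-05) in VP64_Ctrl at 6 h, -0.75 (adjusted p = 0.0301) in VP64_A at 6 h and -0.90 (adjusted p = 0.000325) in H47_Ctrl at 24 h, where the medians of all tested genes were -0.79, -0.25 and -0.21. Without the 3 libraries that stood apart it was called in VP64_Ctrl at 6 h, -0.61 (adjusted p = 0.014), and in H47_Ctrl at 24 h, -0.71 (adjusted p = 0.0152).

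CCL2, CCL7, CCL11 and CCL8 lie side by side on chromosome 17 and were expressed at very different levels. CCL2 occupies chr17:34255274-34257208, CCL7 chr17:34270221-34272242, CCL11 chr17:34285742-34288334 and CCL8 chr17:34319435-34321402, all on the plus strand in GRCh38. CCL7 starts 14.9 kb, CCL11 30.5 kb and CCL8 64.2 kb from the start of CCL2. Summed over 48 libraries, CCL2 had 127929 counts, CCL7 had 336, CCL11 had 76 and CCL8 had 4, the last in 2 libraries. Beyond CCL8, CCL13 at 101.2 kb had 1 count, in VP64_Ctrl at 0 h, and CCL1 at 108.0 kb had 82 counts, none of them at 0 h. Pooled over the 4 kinds of cells, the summed counts fell with distance from CCL2 as far as CCL13, and CCL1 broke that order. It did not hold within VP64_A, where CCL11 had 66 counts and CCL7 had 19, or within VP64_Ctrl, where CCL11 had 1 count and CCL8 had 2.

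CCL11, the eosinophil attractant eotaxin, had 66 of its 76 counts in VP64_A. Its 3 VP64_A libraries held 1, 1 and 1 counts at 0 h, 7, 13 and 6 at 6 h, 1, 17 and 5 at 12 h and 5, 3 and 6 at 24 h, a total of 66 with at least 1 count in 12 of 12 libraries. The 12 VP64_Ctrl libraries together held 1 count, at 24 h, the 12 H47_Ctrl libraries 5 and the 12 H47_KO libraries 4. Against a floor of 3 counts CCL11 was therefore at least 8.23-fold higher in VP64_A than in VP64_Ctrl at 6 h and at least 7.13-fold higher at 12 h. The lower ends of the 95% counting intervals were 6.23 and 5.34. The count ratio at 24 h was 18.8 (95% counting interval 2.87 to 797). At 6 h the bound was 3.69-fold without the first VP64_Ctrl library. At 12 h the second VP64_A library held 17 of the 23 counts, and without it the bound was 4.09-fold, against 4.56-fold and 4.35-fold without the first or the second VP64_Ctrl library. The 24 h ratio rested on 1 count in the first VP64_Ctrl library, without which CCL11 was at least 3.90-fold higher, and it was 10.5 without the third. Within VP64_A the ratio of 6 h to 0 h was 16.7 (5.11 to 86.0). CCL11 did not pass the filter on low counts. Without the filter its adjusted p at 6, 12 and 24 h was 0.00859, 0.0186 and 0.108 in that order. CX3CL1 had 15 counts in 48 libraries, with 4, 3 and 2 in VP64_A at 6 h, 3 in 1 VP64_A library at 12 h, 2 over the 6 h VP64_Ctrl libraries and 1 in H47_KO. Its rise in VP64_A from 0 to 6 h was at least 5.77-fold (3.15-fold without the first 0 h library). The lower end of its 95% counting interval was 3.8. The intervals cover counting error only. Bounds against a floor of 3 counts take the higher counts as observed and do not cover their counting error.

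**Figure D2:**
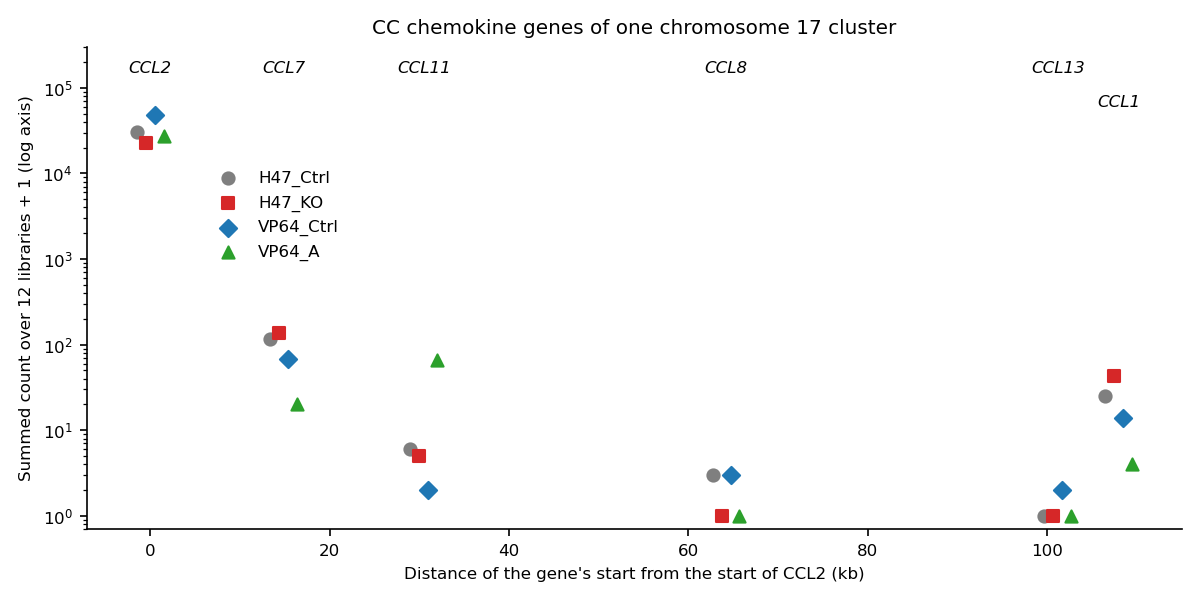
Summed count over the 12 libraries of each kind of cells, plus 1 (log axis), against the distance in kb of each gene's start from that of CCL2, with the points of a gene set side by side. CCL2 has the most counts in all kinds, and CCL7 follows except in VP64_A, where CCL11 at 30.5 kb has 66 counts against 1 in VP64_Ctrl.

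The population with the GLIS3 guide in the Cas9 cells was compared with the population with the non-targeting guide. An effect of losing GLIS3 and other differences between these populations cannot be told apart. At single times no tested member was called: 0 at 0 h (0.301% of all tested genes were called), 0 at 6 h (0.319%), 0 at 12 h (0.0821%) and 0 at 24 h (0.21%). At an unadjusted p under 0.05 edgeR gave 1, 1, 3 and 4 members at these times, where 11.4%, 11.2%, 7.68% and 10% of all tested genes passed, and DESeq2 with adjustment gave 0 at each. At 0 h CCL5, CCL7 and CCL20 held at most 3 counts per group, too few for a comparison. CCL5 had the steadiest difference, 0.73 (SE 0.34, adjusted p = 0.418) at 6 h, 1.08 (SE 0.30, adjusted p = 0.209) at 12 h and 1.05 (SE 0.29, adjusted p = 0.177) at 24 h. Averaged over the 3 stimulated times, a contrast chosen after these values were seen, CCL5 was higher in H47_KO by 0.95 (SE 0.18, adjusted p = 0.00282), and it was 1 of 5 tested members called where 1.54% of all genes were (CXCL12 joined it without the first 6 h H47_Ctrl library, and CCL20 without the second 24 h H47_KO library). Its estimate ran from 0.85 to 1.02 when each library was left out. CXCL12 differed by -0.21 ± 0.46 at 0 h, -0.16 ± 0.47 at 6 h, -0.51 ± 0.47 at 12 h and -0.52 ± 0.47 at 24 h (log2 with approximate 95% interval), and by -0.40 (adjusted p = 0.175) over the stimulated times, which was called without the TMM factors (-0.41, adjusted p = 0.0346). CCL2 differed by 0.84 (SE 0.34, adjusted p = 0.316) at 0 h, 0.12 (adjusted p = 0.912) at 6 h, 0.25 (adjusted p = 0.886) at 12 h and -0.79 (SE 0.27, adjusted p = 0.312) at 24 h. At 24 h its first H47_KO library (209 CPM) overlapped H47_Ctrl and the other two (107 CPM each) lay below it, and without that library the difference was -1.20 with an adjusted p of 0.0338. In TPM, where H47_Ctrl held 716, 661 and 600.3 and H47_KO 549, 406 and 448, the groups did not overlap, and without the TMM factors the difference was -0.50 (adjusted p = 0.177). CCL20 was 0.51 (adjusted p = 0.627) at 6 h and 1.41 (adjusted p = 0.29) at 12 h, with all 3 H47_KO libraries above all 3 H47_Ctrl libraries at 12 h and, in CPM but not in TPM, at 6 h, and CCL7 was 0.22 (adjusted p = 0.914) and 0.49 (adjusted p = 0.893). The change from 0 h could not be compared between the guides for CCL5, CCL7 and CCL20, whose groups held 0 to 3 counts at 0 h. For CCL2 and CXCL12 the difference of the change from 0 to 6 h or 24 h was not called by edgeR, where 0.00912% and 0% of all genes were. At an unadjusted p under 0.05, which 7.93% and 5.62% of all genes passed, there were 0 and 1 of the pair, the latter CCL2 (-1.63 (SE 0.44, adjusted p = 0.836)), and DESeq2 called neither.

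In the CRISPRa arm CXCL12 had the largest difference at each time among the tested members. It averaged 13 ± 1.11 CPM in VP64_A and 121 ± 24.9 in VP64_Ctrl at 0 h (mean ± SD, n = 3), and 5.96 ± 1.29 against 75.2 ± 13.9 at 24 h. The highest VP64_A library at any time, 14.1 CPM, lay below the lowest VP64_Ctrl library, 54.9 CPM. The log2 difference was -3.21 (SE 0.20, adjusted p = 1.9e-13) at 0 h, -3.30 (SE 0.22, adjusted p = 1.46e-12) at 6 h, -3.60 (SE 0.24, adjusted p = 1.29e-12) at 12 h and -3.68 (SE 0.23, adjusted p = 4.33e-13) at 24 h, and leaving out any 1 library moved it only between -3.86 and -3.11. Its change with stimulation was not called different between the groups, -0.09 (adjusted p = 0.954) from 0 to 6 h and -0.47 (adjusted p = 0.805) from 0 to 24 h.

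CCL2 was also lower in VP64_A, with a log2 difference of -1.60 (SE 0.32, adjusted p = 0.000892) at 0 h and -1.06 (SE 0.26, adjusted p = 0.0111) at 12 h. The difference at 6 h was -0.83 (SE 0.25, adjusted p = 0.0643) and at 24 h -0.84 (SE 0.26, adjusted p = 0.0588). At all 4 times every VP64_A library lay below every VP64_Ctrl library of the same time. The 12 h call was lost without the second or the third VP64_A library or the first or the third VP64_Ctrl library (adjusted p from 0.0528 to 0.114), whereas DESeq2 called CCL2 at 6 h (adjusted p = 0.02) and 24 h (0.025) too, as did edgeR without the first 6 h (0.0474) or the third 24 h VP64_Ctrl library (0.0204), without the TMM factors (0.0108 and 3.16e-05 at 6 and 24 h) and without the 3 libraries that stood apart (0.0383 and 0.036). Averaged over the stimulated times, the contrast chosen after seeing the data, the difference was -0.91 (SE 0.15, adjusted p = 2.93e-05).

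CCL20 was lower in VP64_A at 6 h (-1.79 (SE 0.46, adjusted p = 0.0217)), on 40 counts against 129, and that call was lost without any of 4 libraries, the second and the third of VP64_A and the first and the third of VP64_Ctrl (adjusted p from 0.0948 to 0.136), and without the TMM factors (0.0967). At 12 h CCL20 differed by -1.52 (adjusted p = 0.142), and at 24 h by 1.67 (adjusted p = 0.403), higher in VP64_A on 8 counts against 3. The 24 h ratio of summed counts was 3.59, and it ran from 1.99 to 6.68 with 1 library left out. CCL7, which in this arm passed the filter through VP64_Ctrl at 6 h alone so that a lower value in VP64_A was built in, differed by -2.15 (adjusted p = 0.129) at 6 h on 10 counts against 44. CCL5 differed by -0.60 (adjusted p = 0.433) at 6 h, -0.45 (adjusted p = 0.577) at 12 h and -0.37 (adjusted p = 0.631) at 24 h. In all, 2 of 5 tested members were called at 0 h (CCL2 and CXCL12; 9.41% of all genes), 2 at 6 h (CCL20 and CXCL12; 3.76%), 2 at 12 h (CCL2 and CXCL12; 4.31%) and 1 at 24 h (CXCL12; 4.13%), each of them lower in VP64_A. At 6 h and at 12 h the count was 1 without the second VP64_A library of that time, and at 24 h it was 2 without the third VP64_Ctrl library. CCL7 and CCL20 again had a group with 0 counts at 0 h, and for CCL2, CCL5 and CXCL12 the change from 0 h was not called different between VP64_A and VP64_Ctrl by edgeR (0.0911% of all genes were at 6 h and 0.209% at 24 h), with 0 members at an unadjusted p under 0.05, which 9.43% and 7.11% of all genes passed, and 0 by DESeq2 in both. Without the TMM factors the change of CCL2 from 0 to 6 h was called larger in VP64_A by 1.25 (adjusted p = 0.0365), where the median of all genes was 0.53.

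**Figure D3:**
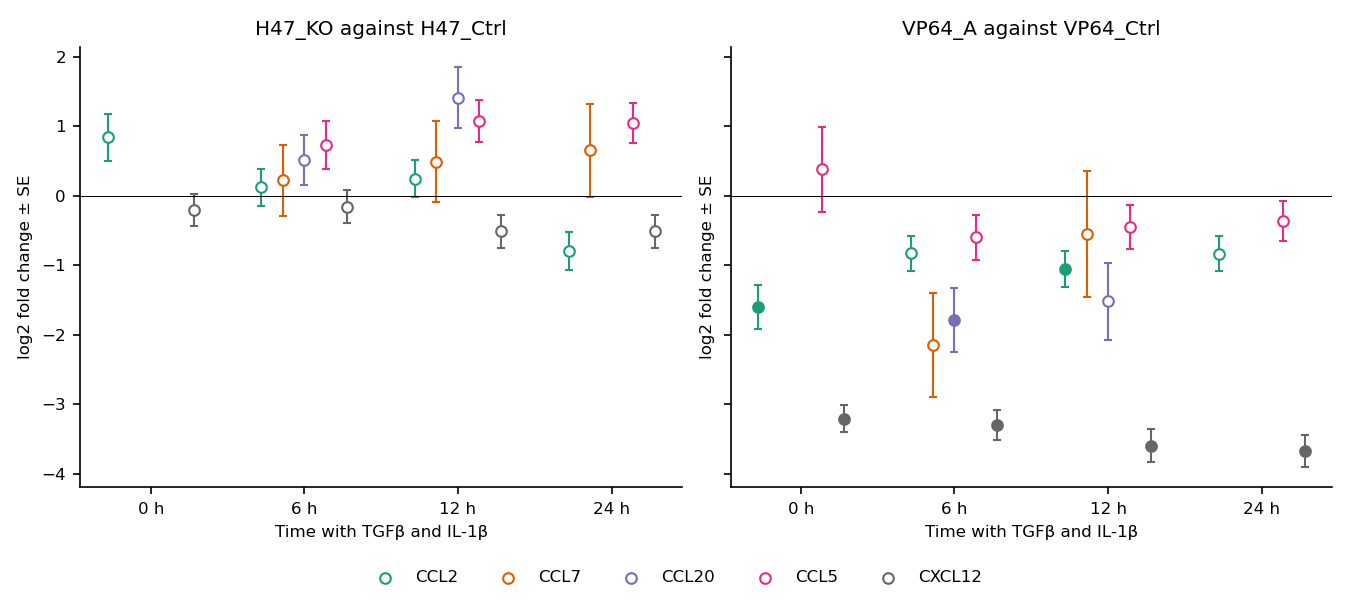
Log2 fold change ± SE of each tested member by time for H47_KO against H47_Ctrl and VP64_A against VP64_Ctrl, with filled points at an adjusted p under 0.05 and pairs with a group of 3 counts or fewer left out. CXCL12 lies between -3.68 and -3.21 in the CRISPRa arm and between -0.52 and -0.16 in the CRISPRko arm, and CCL5 lies above 0 in H47_KO at 6, 12 and 24 h.

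The control cells of the 2 arms also differed in CXCL12 and CCL2, and in CCL5. CXCL12 was higher in H47_Ctrl than in VP64_Ctrl, with log2 differences of 1.30 (SE 0.22, adjusted p = 5.47e-05) at 0 h, 0.92 (SE 0.23, adjusted p = 0.00921) at 6 h and 1.32 (SE 0.23, adjusted p = 4.2e-05) at 24 h. CCL2 was lower in H47_Ctrl at 0 h, -1.06 (adjusted p = 0.0376), and at 24 h, -1.70 (adjusted p = 2.28e-05), and its difference at 6 h was -0.59 (adjusted p = 0.277). CCL5 was lower at 6 h, -1.25 (adjusted p = 0.0141), a call lost without the TMM factors (adjusted p = 0.167), and its difference at 24 h was -0.80 (adjusted p = 0.102). This made 2 of 5 tested members called at each of 0, 6 and 24 h, against 9.58%, 4.06% and 5.87% of all genes. The arms were not compared at 12 h. Of the genes called, the share higher in H47_Ctrl moved without the TMM factors from 54%, 49.8% and 43.1% to 11.6%, 71.5% and 26.9%. Ordered by CXCL12 at 0 h, the kinds of cells ran from H47_Ctrl (299 ± 47.1 CPM) and H47_KO (259 ± 75.3), which did not differ beyond their spread, to VP64_Ctrl (121 ± 24.9) and VP64_A (13 ± 1.11). The arm, the clone, Cas9 against dCas9-VP64 and the guide cannot be told apart in that comparison.

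Other genes moved with VP64_A as well, and their part in the chemokine differences was not tested. All 8 fibroblast markers, led by VIM at a mean of 24110 CPM, passed the filter on low counts. At 0 h 4 of them were higher in VP64_A than in VP64_Ctrl and 0 lower, where 4.29% of all tested genes were higher. They were the fibrillar collagen genes COL1A1 (1.98, adjusted p = 0.000229), COL1A2 (1.54, adjusted p = 0.00104) and COL3A1 (1.48, adjusted p = 0.00164) and the microfibril gene FBN1 (1.07, adjusted p = 0.000131), all log2 differences. At 6, 12 and 24 h 1, 1 and 1 of the 8 were higher, where 1.86%, 2.37% and 1.99% of all tested genes were, and 2, 1 and 0 were lower, where 1.9%, 1.94% and 2.13% were. Without the TMM factors 4, 3, 3 and 1 were higher and 2, 2, 2 and 2 lower at the 4 times, and without the 3 libraries that stood apart 4, 2, 2 and 2 were higher and 1, 2, 1 and 0 lower. KRT14, a keratin of basal epithelium, averaged 67.4 ± 11 CPM in VP64_A and 8.49 ± 2.55 in VP64_Ctrl at 0 h, a log2 difference of 2.96 (adjusted p = 1.98e-10), and its highest group mean among the Cas9 cells was 0.383 ± 0.664 CPM, in H47_Ctrl at 6 h. EPCAM, the defining epithelial surface marker, was at 0 in all 48 libraries, CDH1 had 13 counts in all, and the 5 epithelial markers summed to 7.68 to 101 CPM per library. KRT8, the most abundant of them at 17.1 CPM, differed by 0.17 (adjusted p = 0.668) at 0 h. Of 8 monocyte and macrophage markers 4 were at 0 throughout, and the list summed to 0.289 to 6.79 CPM per library. CSF1R, its most abundant gene at 1.60 CPM, was higher in VP64_A at 24 h by 2.97 (adjusted p = 0.00195). It reached at most 5.93 CPM and at most 49 counts in any library. The filter on low counts may therefore have fixed the direction of this call. All 4 T cell markers in the table were at 0, and the 5 endothelial markers, led by TEK at 0.709 CPM, summed to at most 4.67 CPM.

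Further ligands of the family were scarce. Of 30 other CC, C and CXC ligands outside the neutrophil-attracting group, 28 were in the table, 17 of those had no count in any library, and 2 were tested for the Cas9 cells and 3 for the dCas9-VP64 cells. CXCL16, a membrane-bound chemokine, was the most abundant at 2.32 CPM and was called in no comparison within a kind of cells or between guides. CCL3, a ligand of CCR1, was at 0 in all libraries at 0 h and averaged 4.21 ± 1.88 CPM in H47_Ctrl, 11.7 ± 2.42 in H47_KO, 3.07 ± 0.441 in VP64_Ctrl and 1.83 ± 0.166 in VP64_A at 12 h. Of the 2 ligands tested for the Cas9 cells, 0 were called between H47_KO and H47_Ctrl at 12 h. The reads of CCL3 may be split with its near-identical copy CCL3L3. CXCL10, a CXCR3 ligand, was at 0 in the CRISPRa arm at 0 h and reached 5.84 ± 0.523 CPM in VP64_Ctrl and 5.31 ± 0.158 in VP64_A at 24 h.

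The receptors for these ligands were mostly silent. Of 19 chemokine receptors 18 were in the table, 8 had no count, CXCR4, the CXCL12 receptor, had 1 count and ACKR3, its scavenging receptor, had 71. The 1 receptor that was tested was ACKR4, an atypical receptor that takes up and degrades CCL19, CCL21 and CCL25. In H47_Ctrl it held 12.8, 29.9 and 28.9 CPM at 0 h and 5.52, 7.48 and 5.47 at 24 h, a log2 fall of 1.98 (adjusted p = 6.83e-06). In H47_KO it held 43.8, 45.7 and 53.6 CPM at 0 h and 9.25, 11.5 and 10.7 at 24 h, a log2 change of -2.20 (adjusted p = 4.29e-08). In VP64_Ctrl it held 17.5, 16.2 and 17.5 CPM at 0 h and 30.2, 24 and 26.7 at 24 h, a log2 rise of 0.67 (adjusted p = 0.0327), and at 12 h the rise was 0.66 (adjusted p = 0.024). In VP64_A it held 5.41, 3.4 and 5.11 CPM at 0 h, 6.04, 9.82 and 9.31 at 6 h, 9.59, 7.75 and 7.27 at 12 h and 3.66, 3.43 and 3.95 at 24 h. There it was higher than at 0 h after 6 h (0.84, adjusted p = 0.0261) and 12 h (0.79, adjusted p = 0.0354). Both calls were lost without the TMM factors (adjusted p = 0.247 and 0.273), in fits of the compared libraries alone (0.0525 and 0.0934) and without the second 0 h library (0.132 and 0.153). The 6 h call was also lost without the second or the third 6 h library, and the 12 h call without the third 0 h library or the first or the second 12 h library (0.0612 to 0.137). From 6 to 24 h ACKR4 differed by -1.16 (adjusted p = 0.00841), a call lost without the second 6 h library (0.0533). From 0 to 24 h it differed by -0.32 (adjusted p = 0.563). It lay below VP64_Ctrl at all 4 times with log2 differences of -1.87 (adjusted p = 1.86e-06), -1.27 (adjusted p = 0.00126), -1.74 (adjusted p = 1.23e-05) and -2.86 (adjusted p = 7.57e-09). In H47_KO it was higher than in H47_Ctrl at 0 h by 1.02 (adjusted p = 0.0469), without overlap. That call was lost without the TMM factors (adjusted p = 0.226), without the 3 libraries that stood apart (0.0833), with DESeq2's size factors (0.0521) and without any 1 of the 6 libraries but the third of H47_Ctrl (0.0583 to 0.355). Over the mean of 6, 12 and 24 h it was higher in H47_KO by 0.71 (adjusted p = 0.0149), a call lost without the TMM factors (0.0934) and without the third H47_KO library at 6 h (0.0582). From 0 to 24 h ACKR4 moved in opposite directions in the control cells of the arms, and that difference was not tested. Over library totals without the TMM factors the VP64_Ctrl libraries held 22.9, 19.7 and 32.2 CPM at 0 h and 29.6, 25.2 and 30.7 at 24 h, so that they overlapped, and the rise was not called (0.21, adjusted p = 0.613), nor was it without the 3 libraries (adjusted p = 0.0652), or without any 1 of the 0 h libraries or the first or the third 24 h library (0.0652 to 0.15). The 12 h rise was likewise lost without the TMM factors (0.901), without the 3 libraries (0.055) and without any 1 of the 0 h libraries or the first or the second 12 h library (0.054 to 0.138).

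Most of the tested proteases that trim chemokines were higher at 24 h than before stimulation. MMP1 and MMP3 are secreted matrix metalloproteinases that cut CC chemokines, MMP2 and MMP14 cut CXCL12 and CCL7, and DPP4 removes the first 2 residues of CXCL12 and CCL5. Of 8 listed proteases 7 were tested, all but MMP9, which had 18 counts in the 48 libraries, and at 24 h against 0 h 5 were higher and 0 lower in each of the 4 kinds of cells, where 6.53% of all tested genes were higher in H47_Ctrl, 9.07% in H47_KO, 10.4% in VP64_Ctrl and 9% in VP64_A, with a list median log2 change of 1.14 in H47_Ctrl, 1.13 in H47_KO, 1.80 in VP64_Ctrl and 1.11 in VP64_A against medians of at most 0.02 over all tested genes. Without the TMM factors 4, 5, 4 and 4 were higher and 0 lower. Between VP64_A and VP64_Ctrl 3 of the 7 were higher and 3 lower at 0 h, where 4.29% of all tested genes were higher and 5.12% lower. At 6, 12 and 24 h 0 were higher and 2 lower, where 1.9%, 1.94% and 2.13% of all were lower. The 2 were MMP1 and MMP3. MMP1 was lower in VP64_A at all 4 times, from -3.34 (adjusted p = 2.67e-09) at 0 h to -1.41 (adjusted p = 0.00171) at 24 h, and MMP3 likewise, from -3.93 (adjusted p = 2.44e-12) to -2.02 (adjusted p = 4.37e-07). DPP4 was higher in VP64_A at 0 h (10.4 ± 1.61 against 4.08 ± 0.412 CPM) and differed by -0.37 (adjusted p = 0.428) at 24 h. The others called at 0 h were MMP2 (1.04, adjusted p = 0.000172), ADAM10 (1.05, adjusted p = 0.00985) and MMP14 (-0.85, adjusted p = 0.0135). The ADAM10 call was lost without the TMM factors (adjusted p = 0.0657) and without the second VP64_A or the first or the third VP64_Ctrl library at 0 h (0.055 to 0.0718). The MMP14 call was lost without the first or second VP64_A (0.0505 and 0.0567) or the third VP64_Ctrl library (0.223). Over the mean of 6, 12 and 24 h MMP2 was higher (0.40, adjusted p = 0.00744), and MMP1, MMP3 and MMP14 (-0.63, adjusted p = 0.00104) were lower. In H47_KO 1 of the 7 was called at a single time, MMP1 at 6 h (1.45, adjusted p = 0.0301), where 0.301%, 0.319%, 0.0821% and 0.21% of all tested genes were called at 0, 6, 12 and 24 h. That call was lost without any 1 of the 6 libraries (adjusted p from 0.056 to 0.24) and in the fit of those alone (0.0635). Without the TMM factors MMP1 was also called higher at 0 h (adjusted p = 0.000595) and 24 h (0.0321). It was called over the mean of 6, 12 and 24 h (0.76, adjusted p = 0.0203), where 1.54% of all genes were. This call was lost without the second 12 h or the third 24 h library of H47_Ctrl or the second 6 h or the first 24 h library of H47_KO (0.053 to 0.0619).

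**Figure D4:**
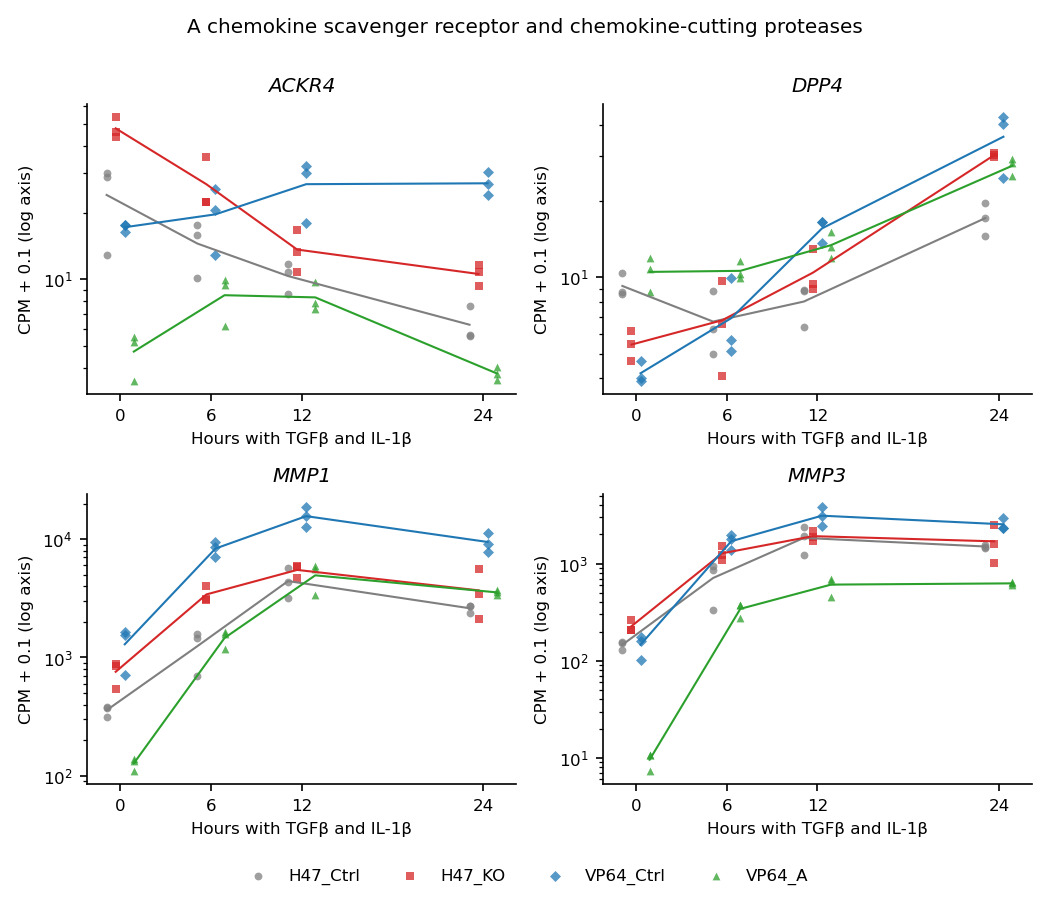
CPM + 0.1 (log axis) against hours of stimulation for the receptor ACKR4 and the proteases DPP4, MMP1 and MMP3, with points for libraries and lines through the means of 3. ACKR4 descends with time in the H47 cells and not in VP64_Ctrl, and VP64_A is the lowest kind for ACKR4 and MMP3 at 0, 6, 12 and 24 h.

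Genes that read out the stimuli responded in all kinds of cells. Of 11 tested NF-kB reference genes, 11 in H47_Ctrl, 10 in H47_KO, 11 in VP64_Ctrl and 11 in VP64_A were higher at 6 h than at 0 h, where 10.3%, 13.2%, 16.2% and 11.4% of all tested genes were, with medians of 3.39, 3.70, 4.11 and 4.44 on the log2 scale. SOD2, the mitochondrial superoxide dismutase and their most abundant member, rose by 5.83 (adjusted p = 7e-17) in H47_Ctrl and 6.03 (adjusted p = 8.35e-18) in VP64_A. TNFAIP3, which encodes the NF-kB inhibitor A20, rose by 5.67 (adjusted p = 2.6e-19) in H47_Ctrl, 6.19 (adjusted p = 5.76e-20) in H47_KO, 5.44 (adjusted p = 1.05e-18) in VP64_Ctrl and 5.89 (adjusted p = 7.51e-19) in VP64_A. Between VP64_A and VP64_Ctrl 1, 2, 2 and 1 of the 11 were lower and 0 higher at 0, 6, 12 and 24 h, where 5.12%, 1.9%, 1.94% and 2.13% of all tested genes were lower, and 5, 0, 2 and 2 were lower without the TMM factors. Between H47_KO and H47_Ctrl 0, 0, 0 and 1 were lower and 0 higher, where 0.128%, 0.0456%, 0.0274% and 0.073% of all genes were lower. Of 7 tested TGF-beta reference genes, 5, 6, 7 and 5 were higher at 6 h in H47_Ctrl, H47_KO, VP64_Ctrl and VP64_A, and 3, 1, 2 and 2 were higher in VP64_A than in VP64_Ctrl at the 4 times with 0 lower, where 4.29%, 1.86%, 2.37% and 1.99% of all genes were higher. Without the TMM factors 5, 4, 6 and 3 of the 7 were higher at 6 h, and 3, 3, 2 and 2 were higher in VP64_A with 1 lower at 0 h. In H47_KO against H47_Ctrl 1, 1, 0 and 1 of the 7 were lower and 0 higher at the 4 times. Of all genes 0.128%, 0.0456%, 0.0274% and 0.073% were lower. TGFBI, an extracellular matrix protein named for its induction by TGFβ, was higher in VP64_A and lower in H47_KO than in their controls at 0 h, with log2 differences of 2.34 (adjusted p = 1.36e-10) and -1.27 (adjusted p = 0.0118).

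The genes whose mean log2(CPM + 1) over the 16 conditions ran most like each member are given as a description, among 10691 genes and with no p, since conditions share cells and stimuli. Nearest to CCL2 were TNFAIP3 (Pearson's r = 0.983), TIFA (0.973) and IRAK2 (0.97). For CCL7 they were TNIP3 (0.948), CHST3 (0.948) and KLF3 (0.938). For CCL20 they were YPEL5 (0.961), SLC35G1 (0.961) and CDKN2AIP (0.96). CCL5 ran with C15orf48 (0.958), LRIG1 (0.955) and SOD2 (0.949), and CXCL12 with FCGRT (0.964), GPNMB (0.954) and ITGA4 (0.95). No member was among the 3 nearest genes of another member, and 11 of these 15 genes stayed among the 50 nearest by Spearman's rho.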

How the data were processed

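Poly(A) RNA libraries were made with Nextera XT and sequenced on a NextSeq 500. The authors used Trim Galore for trimming, SortMeRNA against ribosomal reads, STAR for alignment to GRCh38 and Salmon for quantification, and deposited expected counts per gene and TPM for 48 libraries. The deposited expected counts (6.38% not whole) were rounded, and the deposited TPM served for levels per length. CPM used library sizes scaled by TMM. Each arm's 24 libraries were fitted together in edgeR 4.0.16 (glmQLFit, glmQLFTest, filterByExpr with a minimum count of 10, Benjamini-Hochberg adjustment, R 4.3.3), and the control arms in one fit of all 48 over 11422 genes. DESeq2 1.42.0, its size factors in edgeR, no filter, only the libraries compared, a replicate block, a minimum absolute log2 change of 1 and leaving out each library were tried, with library totals without TMM factors and the 3 libraries of the highest factors left out added after the data were seen, as were CPM for TPM and Spearman's rho for likeness. The edgeR fit was tested on simulated counts with a fixed spread, for known changes of well-counted genes between guides at 24 h. Groups without counts, differences of the change and counting ratios were not tested that way. Each SE of a log2 change is approximate, the absolute change over the square root of the test's F statistic. The 95% intervals of log2 changes use a normal quantile on that SE. Counting ratios carry exact 95% intervals from summed counts. Totals per library were 2485059 to 6750532 in H47_Ctrl, 2761335 to 8542400 in H47_KO, 3197084 to 10661004 in VP64_A and 2321990 to 9971965 in VP64_Ctrl. Replicate pairs were compared (48, none identical). Besides the members, the text names the 3 most alike genes, called receptors, abundant genes of the lists and GLIS3, with further genes of the lists named after their values were seen. The members and lists were chosen with earlier results of these data known. Titles and descriptions conflict in the CRISPRa arm, and descriptions were used.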

Additional observations from a re-analysis of the deposited data

Results flagged for a closer look

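In the CRISPRa arm edgeR's interaction test called 2 of the 39 other listed genes that were tested in the change from 0 to 6 h between the GLIS3 guide and its control, where 0.0911% of all tested genes were, and 3 of 39 in the change from 0 to 24 h, where 0.209% were. They came to 4 genes, named here after their values were seen. Over all tested genes the 0 to 6 h test gave 10 calls, 41 without the TMM factors (median 0.53 over all genes) and 1 without the 3 libraries that stood apart, and the 0 to 24 h test gave 23, 23 and 21. The share of these calls that were higher moved without the TMM factors from 60% to 95.1% and from 60.9% to 91.3%. For MMP3 the log2 change from 0 to 6 h was larger in VP64_A than in VP64_Ctrl by 1.62 (adjusted p = 0.0475), and that from 0 to 24 h by 1.91 (adjusted p = 0.00441). The first of these calls held without the TMM factors (4.8e-09) and the 3 libraries (0.0314), and was lost with the replicate block (0.0696), DESeq2's size factors (0.0656), the compared libraries alone (0.0739) or without any of 10 of the 12 libraries (0.0545 to 0.23), all but the first VP64_A library at 6 h and the third VP64_Ctrl library at 0 h. The MMP3 call from 0 to 24 h held in all of these fits. MMP1 rose more from 0 to 24 h in VP64_A, by 1.93 (adjusted p = 0.0266), which was lost in the compared libraries alone (0.0521) and without any of 10 libraries (0.0544 to 0.121), all but the third VP64_Ctrl library at 0 h and the first at 24 h. Both started from lower levels in VP64_A, 9.49 ± 1.94 against 146 ± 39.1 CPM for MMP3 and 127 ± 15.2 against 1292 ± 510.0 CPM for MMP1 at 0 h (mean ± SD, n = 3). For DPP4 the difference of the change from 0 to 24 h was -1.71 (adjusted p = 0.00441), with 10.4 ± 1.61 against 4.08 ± 0.412 CPM at 0 h and 27.5 ± 2.16 against 35.8 ± 9.85 CPM at 24 h, and the call was lost without the TMM factors (-1.61, adjusted p = 0.0676). For TGFBI the difference of the change from 0 to 6 h was -1.26 (adjusted p = 0.0441), with 103 ± 21 against 20.2 ± 0.489 CPM at 0 h and 149 ± 20.6 against 70.1 ± 7.2 CPM at 6 h. The TGFBI call was lost without the 3 libraries (-1.28, adjusted p = 0.134), without the TMM factors (-0.79, adjusted p = 0.181) and without any 1 of the 12 libraries (0.0573 to 0.189) but the second VP64_Ctrl library at 6 h (0.0495).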

How the results depend on the processing

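In VP64_A against VP64_Ctrl CXCL12 kept its direction and call at all times under DESeq2, other size factors, no filter, only the libraries compared, the replicate block, a minimum log2 change of 1 and each library left out. CCL2 rose from 0 to 6 h likewise in all 4 kinds of cells. Fitting the compared libraries alone, fewer members were called: 3 for 5 in H47_Ctrl at 12 h against 0 h, in H47_KO at 24 h against 0 h, and in VP64_Ctrl and VP64_A at 12 h against 0 h, and 2 for 4 in H47_Ctrl at 24 h against 6 h. Of all genes these fits called 2616 for 2150, 997 for 1737, 2520 for 2938, 1851 for 2159 and 1524 for 1604 in that order. VP64_A against VP64_Ctrl at 24 h gave 2 called members for 1 with DESeq2, with no filter and with only the libraries compared. With no filter on low counts, 4 for 2 were called in VP64_A at 6 h, 1 for 0 in the change from 0 to 24 h in H47_KO against H47_Ctrl (CCL2), and 2 for 1 in that pair's mean of stimulated times. With a minimum absolute log2 change of 1, the mean of stimulated times gave 0 for 1 in H47_KO and 1 for 2 in VP64_A, and H47_Ctrl against VP64_Ctrl at 6 h gave 1 for 2. The cause was not tested.

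With each library left out in turn, the members called ranged from 2 to 4 in H47_Ctrl at 24 h against 6 h, from 0 to 1 in H47_KO against H47_Ctrl at 24 h and 1 to 2 for the mean of stimulated times, from 1 to 2 in VP64_A at 24 h against 6 h, and, in VP64_A against VP64_Ctrl, from 1 to 3 at 6 h, 1 to 3 at 12 h, 1 to 2 at 24 h and 2 to 5 for the mean of stimulated times. The higher counts at 6 h and 12 h include CCL11, which passed the filter in fits of fewer libraries. It could pass only through VP64_A libraries, so that its higher value in VP64_A was built in and its call is not evidence. The count of 5 for the mean of stimulated times must include CCL7 or CCL11, and the filter fixed the direction of either in this arm. Log2 differences not called crossed 0: CXCL12 in H47_Ctrl at 24 h against 6 h (-0.17 to 0.27), CCL2 (-0.20 to 0.48), CCL7 (-0.16 to 1.03) and CXCL12 (-0.44 to 0.0079) in H47_KO against H47_Ctrl at 6 h, CXCL12 in the difference of the change from 0 to 6 h in H47_KO (-0.21 to 0.23) and in VP64_A (-0.27 to 0.060), and CCL5 in VP64_A against VP64_Ctrl at 0 h (-0.14 to 1.28).

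A minimum absolute log2 change of 1 lowered the total of called genes, but for the differences of the change, to 582 to 1539 for 1125 to 3165 in the 16 comparisons of times, to 433, 239, 278 and 263 for 1033, 413, 473 and 453 in VP64_A against VP64_Ctrl at the 4 times, to 14, 20, 6 and 14 in H47_KO against H47_Ctrl, to 19 for 169 and 314 for 1292 in their means of stimulated times, and to 412, 254 and 397 for 1094, 464 and 671 between the control arms. For H47_KO against H47_Ctrl it was 33, 35, 9 and 23 at 0, 6, 12 and 24 h with edgeR, 112, 169, 42 and 37 with DESeq2, 137, 142, 81 and 92 with no filter, 75, 54, 38 and 9 with only the libraries compared, 11, 8, 2 and 38 on library totals and 104, 123, 24 and 17 without the 3 libraries. For the change from 0 to 6 h and 24 h it was 1 and 0 in that pair (DESeq2 40 and 1, no filter 63 and 21, library totals 0 and 0, 616 at an unadjusted p under 0.05 for the latter) and 10 and 23 in VP64_A against VP64_Ctrl (DESeq2 46 and 39, no filter 106 and 81, library totals 41 and 23, without the 3 libraries 1 and 21). The mean of stimulated times in H47_KO gave 169, 264 with no filter or 87 on library totals, and H47_KO at 24 h against 0 h gave 1737, 997 with only the libraries compared or 987 on library totals.

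On library totals without TMM factors, chosen after seeing the data, 2 members for 1 were called in the mean of stimulated times in H47_KO, 2 for 1 in VP64_A against VP64_Ctrl at 24 h, 1 for 0 in its change from 0 to 6 h, and 1 for 2 in H47_Ctrl against VP64_Ctrl at 6 h. Without the 3 libraries of the highest factors, 4 for 2 were called in VP64_A against VP64_Ctrl at 6 h and 3 for 1 at 24 h, including CCL11, which then passed the filter. Of all genes 464 for 413 and 520 for 453 were called. CCL11 could pass only through VP64_A libraries, so a higher value there was built in and its call is not evidence. Log2 differences, none called, changed sign without the factors for CXCL12 at 24 h against 6 h in H47_KO (0.32) and VP64_Ctrl (0.050), CCL2 (-0.16) and CCL7 (-0.25) in H47_KO against H47_Ctrl at 6 h, and CXCL12 in the difference of the change from 0 to 6 h in H47_KO (-0.27) and VP64_A (0.40), the last pair being -0.13 and 0.060 without the 3 libraries. The share of called genes that were higher moved from 56.1% to 9.11% in VP64_Ctrl at 6 h against 0 h (6211 called for 3165), from 55% to 13.5% in H47_KO (4097 for 2625), from 49.9% to 91.1% in H47_KO at 24 h against 6 h (4150 for 2649) and from 45.6% to 10.6% in VP64_A against VP64_Ctrl at 0 h (1690 for 1033, or 491 without the 3 libraries). At 6, 12 and 24 h against 0 h it moved from 65.9%, 63.9% and 66.4% to 42.8%, 39.3% and 30.2% in VP64_A, and at 12 and 24 h from 57% and 65.1% to 11.1% and 17% in VP64_Ctrl (5114 for 2938 and 2823 for 1752), from 57.8% and 63.6% to 43.3% and 43.4% in H47_Ctrl, and from 52.4% to 25.6% in H47_KO at 12 h. At 24 h against 6 h it moved from 47.1% to 28.4% in H47_Ctrl (885 for 1604), 48.7% to 76.5% in VP64_Ctrl and 46.3% to 34.3% in VP64_A (898 for 1375). In H47_Ctrl the total was 980 for 1744 at 6 h and 731 for 1125 at 24 h against 0 h, and against VP64_Ctrl at 0 h 1693 for 1094. Between guides the share moved from 57.6%, 85.7%, 66.7% and 65.2% to 81.8%, 50%, 50% and 94.7% in H47_KO at the 4 times and from 49.4% and 48.3% to 60.6% and 26.7% in VP64_A at 6 and 24 h.

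Replicate numbers were not taken to pair the samples, since deviations of same-numbered libraries correlated by 0.0145 on average (lowest -0.252; other numbers -0.00715). As a hint from the data, 25 of 48 libraries correlated best with their own number, where 16 would with no relation. With the block, 3 members for 2 were called in the mean of stimulated times in VP64_A, the third being CCL7 (adjusted p = 0.0431), whose direction there the filter fixed, and no other count of members changed. Counts under 10 per library limit CCL7, CCL8, CCL11, CCL20 and CX3CL1.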
